A study of Mus musculus with 6 samples.

Results

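Complement is a cascade of proteins that tags microbes and dying cells for uptake and releases fragments that attract leukocytes. Macrophages both make some of its components and read its fragments through receptors, and complement deposited on apoptotic cells helps phagocytes clear them. The genes described here are the complement components and receptors other than C1q: C3, C4b, Cfb and Cfp, which encode soluble components, C3ar1, C5ar1 and Vsig4, which encode receptors, and Cd55, which encodes a membrane regulator. They were taken by gene symbol, 8 genes of the 55291 in the deposited table, and all 8 were found and passed the filter on low values.

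Poly(A) RNA was sequenced from BMDM, macrophages that are grown in culture from the bone marrow of mice. Of 6 libraries, 3 were from cells pretreated with apoptotic cells (AC pretreated) and 3 from cells without that pretreatment (untreated). The sources used here do not give the strain and age of the mice, or which apoptotic cells were added, how many and for how long. No label says that replicates were separate cultures or animals, so the spread behind the p-values is that of the libraries and could be technical in origin.

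Levels are in transcripts per 1000000 (TPM), the share of a gene among all transcripts after division by its length, so they can be compared between genes. Group values are means ± SD over 3 libraries each. Each difference is the AC pretreated mean of log2(TPM + 1) minus the untreated one, given ± its SE, and it understates the change of low genes. In a bulk sample, fewer cells of a type and less RNA per cell cannot be told apart.

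The libraries carried between 19044752 and 32218668 reads on genes. Macrophage markers were high in both groups, with Cd68 at 3731 to 4592 TPM and Adgre1 at 1641 to 2633 TPM over all 6 libraries. In the sets of replicates 1 and 2, 6 of 7 placental marker genes were present in at least 1 library, with summed levels of 19.8 and 96.7 TPM in AC pretreated and 11.8 and 22.8 TPM in untreated cells. In replicate 3 of both groups all 7 were at 0, so the differences of the 8 genes are also given for these sets of libraries apart. Untreated replicate 1 stood apart in Lyz2, the lysozyme gene, at 83.7 TPM where the other libraries had at least 9270 TPM. AC replicate 3 held 73940 TPM of the small RNA gene Gm23935, against at most 13450 TPM elsewhere. Of 10 thymocyte and T cell markers, 9 stayed below 1 TPM in every library, and the list summed to 10.6 to 17.3 TPM in AC pretreated and 9.87 to 15.9 TPM in untreated libraries. The 4 epithelial markers summed to 2.04 to 4.70 TPM in AC pretreated and 0.650 to 1.56 TPM in untreated libraries, with Epcam at 0 throughout, and their part in the results was not tested. All 5 hepatocyte markers, from the organ that makes most serum complement, were at 0 in every library.

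C3ar1 and C5ar1, genes of receptors for the complement fragments C3a and C5a, and the gene for properdin were among the most abundant transcripts. By mean level over the 6 libraries, C3ar1 ranked 68, Cfp 81 and C5ar1 187 of 12603 tested genes. C3 ranked 1768, Cfb 6077, C4b 6822, Vsig4 9514 and Cd55 9743. In that order, C3ar1 and Cfp overlapped in range, as did Cfb and C4b, and Vsig4 and Cd55. The other neighbours in the order did not overlap in any library. Cfb and Vsig4, which are not neighbours in the order, did overlap. In AC replicate 2 Cfb was at 7.31 TPM and Vsig4 at 7.80 TPM.

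No complement gene passed the test between the groups. With limma and Benjamini-Hochberg adjustment over 12603 genes, 0 of the 8 were called, where 0% of all tested genes were (0 of 12603), and each of the 8 had an adjusted p of 1.0. At an unadjusted p under 0.05 there were 0 of the 8 and 164 of all genes (1.3%). The values of the groups overlapped for all 8, and did not overlap for 4.42% of tested genes. Of the 8 genes, 2 had a higher and 6 a lower mean in AC pretreated cells, and there was a median log2 difference of -0.05, against 3710 higher, 8893 lower and a median of -0.07 over all tested genes.

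**Figure D1:**
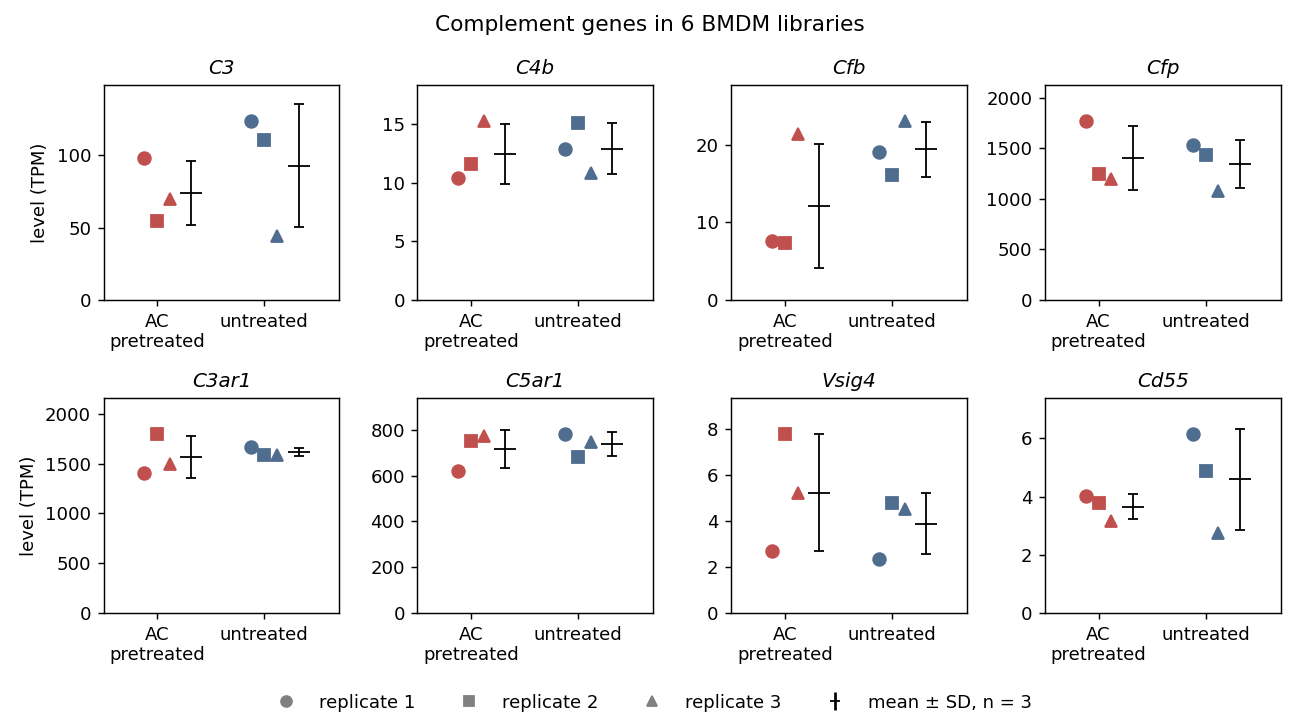
Level in TPM (vertical axes, each starting at 0 with its own scale) of the 8 complement genes, with 1 point per library, marked by replicate, and the mean ± SD of 3 libraries beside each group. The groups overlap in every panel, and the Cfb levels of AC replicates 1 and 2 lie below all other libraries.

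C3 encodes the central component, which is cleaved to tag surfaces and to release C3a. Its level was 98.3, 54.7 and 69.8 TPM in AC replicates 1, 2 and 3, against 124, 110.5 and 44.5 TPM in untreated replicates 1, 2 and 3. Both the highest and the lowest library were untreated ones, and the AC pretreated libraries lay between them. The means were 74.3 ± 22.1 TPM in AC pretreated and 93.02 ± 42.5 TPM in untreated cells (SD, n = 3 each), a log2 difference of -0.23 ± 0.38. The 95% interval ran from -1.11 to 0.64, that is, from 0.464-fold to 1.56-fold, so differences inside that range could not be resolved. The difference was -0.67 in replicates 1 and 2 and 0.64 in replicate 3, so its direction turned, and it turned to 0.04 without untreated replicate 1. Without untreated replicate 3 it was -0.69, and it came to -0.45 without AC replicate 1, -0.04 without AC replicate 2 and -0.04 without untreated replicate 2. C3 lies on chromosome 17 from 57203970 to 57228136 (mm10), on the minus strand.

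C4b encodes the component of the classical and lectin pathways that is related to C3. Its level was 10.4, 11.6 and 15.3 TPM in AC pretreated and 12.9, 15.1 and 10.8 TPM in untreated replicates 1, 2 and 3. The highest library and the lowest were both AC pretreated ones. The means of 12.4 ± 2.56 TPM in AC pretreated and 12.9 ± 2.16 TPM in untreated cells (n = 3 each) gave a log2 difference of -0.06 ± 0.20, with a 95% interval of -0.52 to 0.41. It was -0.32 in replicates 1 and 2 and 0.47 in replicate 3. Leaving out 1 library gave values from -0.21 to 0.05, and the scaling by median of ratios gave 0.01. C4a, a near-identical copy, was at 0.202 to 0.538 TPM, and reads that map to both copies may be missing or misplaced. C4b lies on chromosome 17 from 34728380 to 34743882.

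Cfb encodes factor B, the protease subunit of the alternative pathway convertase. It had the largest difference of the 8. Its level was 7.61, 7.31 and 21.3 TPM in AC replicates 1, 2 and 3, against 19.0, 16.1 and 23.1 TPM in untreated ones. AC replicates 1 and 2 were below every untreated library, while AC replicate 3 was above untreated replicates 1 and 2. The counts behind these levels were 195, 141 and 419 reads in AC pretreated and 386, 492 and 416 reads in untreated libraries. The exact Poisson 95% intervals of the level, which cover counting error alone, reached 8.76 TPM in AC replicate 1 and 8.62 TPM in AC replicate 2, and began at 14.7 TPM in untreated replicate 2. The gap between these libraries is thus beyond counting error, and the spread among the AC pretreated libraries is too.

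The mean of Cfb was 12.1 ± 8.01 TPM in AC pretreated and 19.4 ± 3.50 TPM in untreated cells (n = 3 each), a log2 difference of -0.79 ± 0.37. By limma its adjusted p was 1.0 and its unadjusted p 0.0643, with a 95% interval of -1.63 to 0.06. By voom on the recovered reads, a test chosen after seeing the data, the difference was -0.81 ± 0.35, with an adjusted p of 1.0 and an unadjusted p of 0.0401. The difference was -1.13 in replicates 1 and 2, where placental marker genes were detected, and -0.11 in replicate 3, where all 7 were at 0. It ranged from -1.25 without AC replicate 3 to -0.54 without AC replicate 2, and kept its sign in all 6 cases. The 4 erythroid markers summed to 6.43, 16.8 and 0.177 TPM in AC pretreated replicates 1, 2 and 3. In untreated replicates 1, 2 and 3 they summed to 1.42, 2.93 and 0 TPM. AC replicates 1 and 2 were thus the highest libraries in erythroid markers. In the placental markers untreated replicate 2, at 22.8 TPM, lay above AC replicate 1, at 19.8 TPM. The part of placental or erythroid RNA in the Cfb difference was not tested.

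Cfb lies on chromosome 17 from 34856374 to 34862518, and 2246 of its 2825 exonic bases (79.5%) are shared on the same strand with Gm20547, a readthrough gene that also covers C2. Gm20547 is listed at 0 in every library. The sources used here do not say how reads in shared exons were counted, which leaves the level of Cfb uncertain.

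Cfp encodes properdin, which stabilises the alternative pathway convertase and is made by leukocytes. Its level was 1771, 1247 and 1200 TPM in AC pretreated and 1533, 1430 and 1077 TPM in untreated replicates 1, 2 and 3. The highest library was an AC pretreated one and the lowest an untreated one, while of the other 4 the untreated libraries lay above the AC pretreated ones. The means were 1406 ± 317 TPM in AC pretreated and 1347 ± 239 TPM in untreated cells (n = 3 each), and the log2 difference was 0.06 ± 0.21 with a 95% interval of -0.42 to 0.53. The difference was 0.01 in replicates 1 and 2 and 0.16 in replicate 3. It turned to -0.12 without AC replicate 1 and to -0.10 without untreated replicate 3. It ranged from 0.11 to 0.16 without any of the other 4. Neutrophils also make properdin: the summed level of 9 neutrophil markers was 39.1 to 56.0 TPM in AC pretreated and 36.5 to 69.1 TPM in untreated libraries, 3 of the 9 stayed below 1 TPM, and their part was not tested. Cfp lies on chromosome X from 20925454 to 20931555.

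C3ar1 and C5ar1 encode the receptors for C3a and C5a, which couple to G proteins and drive chemotaxis and activation. C3ar1 had 1402, 1800 and 1498 TPM in AC replicates 1, 2 and 3, against 1663, 1590 and 1591 TPM in untreated ones. The AC pretreated libraries held both the highest and the lowest value, with the untreated libraries between. Its means were 1566 ± 207 TPM in AC pretreated and 1615 ± 41.5 TPM in untreated cells (n = 3 each). The log2 difference of -0.05 ± 0.15 had a 95% interval of 0.765-fold to 1.22-fold.

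For C5ar1 the levels were 620.3, 749 and 774 TPM in AC pretreated and 783, 680 and 747 TPM in untreated replicates 1, 2 and 3. AC replicate 1 was the lowest library and untreated replicate 1 the highest. The means of 714 ± 82.6 TPM in AC pretreated and 736 ± 52.3 TPM in untreated cells (n = 3 each) gave a log2 difference of -0.05 ± 0.14, with a 95% interval of 0.770-fold to 1.21-fold. The intervals of these receptor genes were the narrowest of the 8. In replicates 1 and 2 the differences were -0.03 for C3ar1 and -0.10 for C5ar1, and in replicate 3 they were -0.09 and 0.05. Without AC replicate 1 they turned to 0.02 for C3ar1 and 0.05 for C5ar1, and with scaling by median of ratios to 0.02 for both.

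In every library C3ar1 was higher than C5ar1. The ratio of their TPM was 2.26, 2.40 and 1.93 in AC pretreated and 2.12, 2.34 and 2.13 in untreated replicates 1, 2 and 3. Its mean was 2.20 ± 0.240 in AC pretreated and 2.20 ± 0.122 in untreated libraries (n = 3 each). The levels of both genes moved little over the 6 libraries: the highest was 1.28 times the lowest for C3ar1 and 1.26 times for C5ar1. The median was 1.64 over all tested genes, which include low ones, and 1.545 over those with a mean of at least 5 TPM. C5ar2, the second receptor for C5a, was far lower at 9.72, 13.3 and 19.1 TPM in AC pretreated and 11.8, 10.9 and 15.2 TPM in untreated replicates 1, 2 and 3. C3ar1 lies on chromosome 6 from 122847138 to 122856161 and C5ar1 on chromosome 7 from 16246743 to 16259540.

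Vsig4 encodes a receptor for C3b and iC3b that is known from resident macrophages such as Kupffer cells. Its level was low, at 2.67, 7.80 and 5.23 TPM in AC pretreated and 2.34, 4.79 and 4.54 TPM in untreated replicates 1, 2 and 3. Replicate 1 was the lowest library of each group. These values rest on 36, 79 and 54 reads in AC pretreated and 25, 77 and 43 reads in untreated libraries, and the exact Poisson 95% interval was 6.17 to 9.72 TPM for AC replicate 2 and 1.52 to 3.46 TPM for untreated replicate 1. The means of 5.24 ± 2.56 TPM in AC pretreated and 3.89 ± 1.35 TPM in untreated cells (n = 3 each) gave a log2 difference of 0.30 ± 0.36, with a 95% interval of -0.52 to 1.13. It was 0.37 in replicates 1 and 2 and 0.17 in replicate 3. Leaving out 1 library gave 0.01 without AC replicate 2, 0.05 without untreated replicate 1 and 0.64 without AC replicate 1, with the other values from 0.26 to 0.45. Vsig4 lies on chromosome X from 96247203 to 96293438.

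Cd55 encodes decay-accelerating factor, a membrane protein that takes apart C3 and C5 convertases on the cell's own surface. Its level was 4.02, 3.77 and 3.17 TPM in AC pretreated and 6.16, 4.87 and 2.74 TPM in untreated replicates 1, 2 and 3. Untreated libraries held the highest, the second highest and the lowest value. The libraries had 177, 125 and 107 reads on the gene in AC pretreated and 215, 256 and 85 reads in untreated cells. With means of 3.65 ± 0.438 TPM in AC pretreated and 4.59 ± 1.73 TPM in untreated cells (n = 3 each), the log2 difference was -0.22 ± 0.27 and its 95% interval -0.84 to 0.40. The difference was -0.41 in replicates 1 and 2 and 0.16 in replicate 3. It was -0.01 without untreated replicate 1 and -0.48 without untreated replicate 3, -0.14 without AC replicate 3, and -0.28 to -0.16 without any of the other 3. Its copy Cd55b is listed at 0 in every library, and 2.1% of the exonic bases of Cd55 are shared with an antisense gene, Gm16083. Cd55 lies on chromosome 1 from 130439027 to 130462744.

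**Figure D2:**
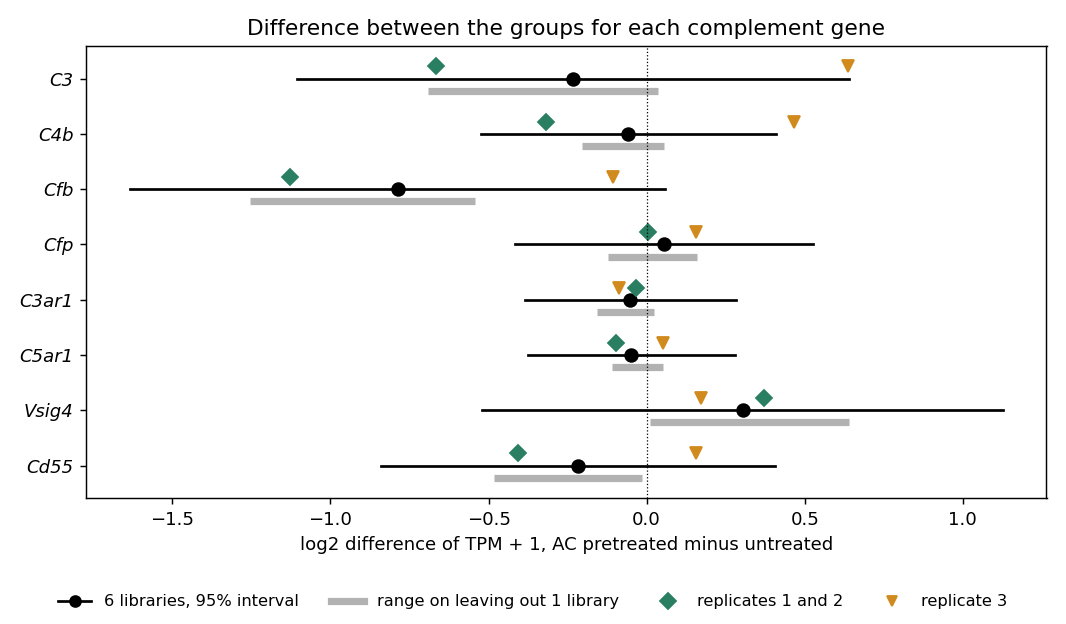
Log2 difference of TPM + 1, AC pretreated minus untreated (horizontal axis), for each complement gene: the value over 6 libraries with its 95% interval, the range on leaving out 1 library, and the values in replicates 1 and 2 and in replicate 3. Every interval includes 0, and for C3, C4b, C5ar1 and Cd55 the diamond and the triangle lie on opposite sides of 0.

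The genes differed in how much they varied between libraries. The highest library was 3.33 times the lowest for Vsig4, 3.15 times for Cfb, 2.78 times for C3, 2.25 times for Cd55, 1.64 times for Cfp and 1.47 times for C4b. A set of 3 genes, C3, Cfp and Cd55, shared an order of libraries: AC replicate 1 and untreated replicates 1 and 2 were their 3 highest, and untreated replicate 3 was the lowest. Over all tested genes, 11.1% had the same 3 highest libraries and 13.4% were lowest in untreated replicate 3. On the log2(TPM + 1) scale centred on each gene's mean, C3 stood at 0.32, -0.51 and -0.16 in AC pretreated and 0.66, 0.49 and -0.80 in untreated replicates 1, 2 and 3. Cfb went another way, at -0.83, -0.89 and 0.54 in AC pretreated and 0.38, 0.15 and 0.65 in untreated replicates.

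C3 and Cfb, whose products together form the alternative pathway convertase, stood in unequal proportion between libraries. The TPM of C3 was 12.9, 7.48 and 3.27 times that of Cfb in AC pretreated and 6.53, 6.88 and 1.93 times in untreated replicates 1, 2 and 3. Replicate 3 had the lowest ratio in each group, and the groups overlapped. These ratios carry the uncertainty of the Cfb level.

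**Figure D3:**
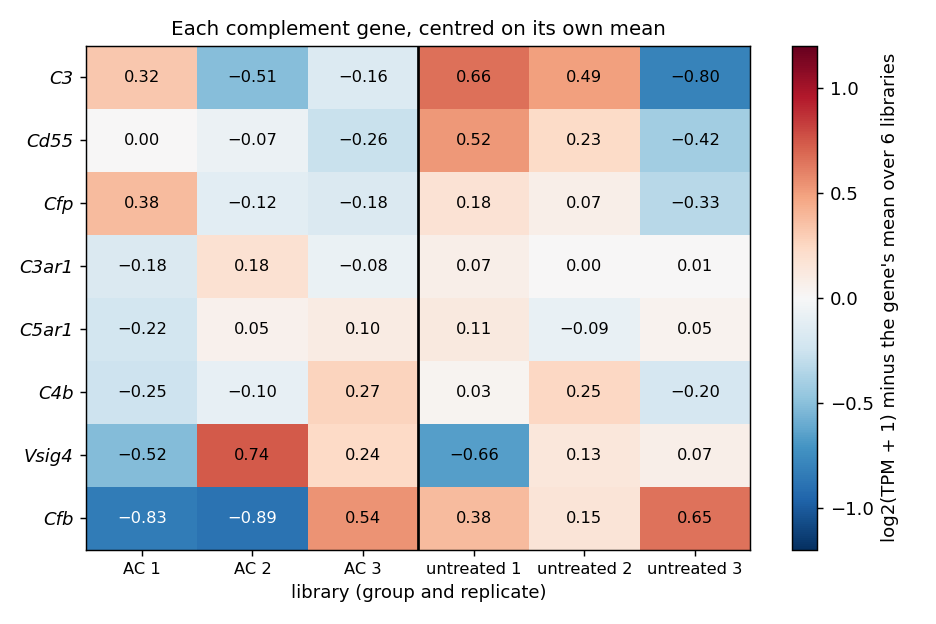
Centred log2(TPM + 1) (colour and printed value, with each gene's mean over 6 libraries at 0) for the 8 complement genes (rows) in AC pretreated and untreated libraries (columns). C3, Cd55 and Cfp are lowest in untreated replicate 3, while Cfb is lowest in AC replicates 1 and 2 and highest in untreated replicate 3.

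The likeness of profiles was measured as the root mean square distance between centred log2(TPM + 1) values over the 6 libraries, as a description. Among the 8 genes the closest pair was C3ar1 and C5ar1 (0.10), and the most distant was C3 and Vsig4 (0.92). Genes that vary little are close to one another by this measure. Of 8763 other genes with a mean of at least 5 TPM, the closest to C3 were Gadd45g (0.16), Nr1d1 (0.16) and Il4ra (0.19). For Cfb they were Spsb3 (0.19), Dynll2 (0.25) and Taf15 (0.26), for Cfp Bscl2 (0.05), Zfp524 (0.05) and Zfp688 (0.05), and for C4b Rbm14 (0.06), BC017158 (0.06) and Unk (0.07). Of 8764 such genes, those closest to Cd55 were Slc2a6 (0.05), Nectin2 (0.06) and Chil3 (0.07), and those closest to Vsig4 were Mir7-1 (0.16), Igip (0.23) and Taf9b (0.23). C3ar1 was closest to Setmar, Ctso and Uba2 (all 0.02), and C5ar1 to Arhgap25 (0.02), Gfm1 (0.03) and Hsd17b4 (0.03).

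The promoters of C3, Cd55 and Cfp, the genes that shared an order of libraries, and that of C3ar1, whose level was steady, are shown as the 250 bases before the RefSeq start (GRCm38.p6, minus strand, 5′ to 3′). RefSeq entries were matched for 6 of the 8 genes, and those of C4b and Cfb are not shown. Capitals mark matches on either strand to motif letters of C/EBP (TTGCNNAA), NF-kB (GGGNNNNNCC), PU.1 (GAGGAA) or Sp1 (GGGCGG), and overlapping matches run together.
C3, chr17:57228137-57228386: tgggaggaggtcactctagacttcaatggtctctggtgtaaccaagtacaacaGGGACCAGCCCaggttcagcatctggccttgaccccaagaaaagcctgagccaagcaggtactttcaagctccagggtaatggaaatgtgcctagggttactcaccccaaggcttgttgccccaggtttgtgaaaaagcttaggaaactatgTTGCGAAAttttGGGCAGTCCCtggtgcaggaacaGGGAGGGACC
Cd55, chr1:130462745-130462994: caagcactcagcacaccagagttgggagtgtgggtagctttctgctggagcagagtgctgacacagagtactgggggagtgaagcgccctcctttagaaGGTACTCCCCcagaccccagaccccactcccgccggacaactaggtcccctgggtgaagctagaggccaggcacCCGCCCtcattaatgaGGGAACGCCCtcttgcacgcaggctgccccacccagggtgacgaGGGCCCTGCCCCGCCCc
Cfp, chrX:20931556-20931805: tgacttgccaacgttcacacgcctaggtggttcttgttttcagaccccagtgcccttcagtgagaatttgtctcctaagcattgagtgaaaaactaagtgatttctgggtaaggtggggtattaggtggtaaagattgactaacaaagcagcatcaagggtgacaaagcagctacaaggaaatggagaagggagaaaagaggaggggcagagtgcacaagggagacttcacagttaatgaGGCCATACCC
C3ar1, chr6:122856158-122856407: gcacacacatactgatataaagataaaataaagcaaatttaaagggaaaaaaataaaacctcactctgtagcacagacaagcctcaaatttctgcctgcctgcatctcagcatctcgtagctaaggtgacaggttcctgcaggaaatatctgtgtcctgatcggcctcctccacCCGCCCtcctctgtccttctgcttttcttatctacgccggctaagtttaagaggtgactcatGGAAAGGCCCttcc

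Of these, only C3 held the C/EBP letters, 45 bases before the start, in a window where 9.56% of 32851 promoters of the same length have them. NF-kB letters were in all 4 windows and in 45.8% of all promoters, so they do not set these genes apart. Sp1 letters were in the windows of Cd55 and C3ar1 and in 32.7% of promoters. PU.1 letters, present in 23.3% of promoters, were in none of the 4, and Vsig4 held them at 155 and 53 bases before its start. A match says only that the letters are there. The window of Cd55 was 64.0% G and C, against 52.0% for C3, 46.8% for Cfp and 45.6% for C3ar1.

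The other genes of the pathway were described from a list of 47 genes that was not chosen by how they moved. The list was drawn up with earlier results of these data known. Of these, 14 passed the filter, 31 stayed below 1 TPM in every library and 17 were at 0 in all 6. Of the 14 tested, 0 were called by limma in either direction, against 0% of all tested genes, and 0 had an unadjusted p under 0.05. Means were higher for 3 and lower for 11, with a median log2 difference of -0.04 against -0.07 over all tested genes.

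Integrin genes of complement receptor 3, which binds iC3b, stood with C3ar1 and C5ar1 among the high transcripts. Itgam, its alpha chain, had 351, 323 and 310.0 TPM in AC pretreated and 388, 375 and 412 TPM in untreated replicates 1, 2 and 3, and the log2 difference was -0.26 ± 0.12 (limma adjusted p = 1.0). It was the 1 gene of the 14 whose groups did not overlap, where 4.42% of all tested genes did not, and 68.7% of its exonic bases are shared with the gene Gm49368, so its level is uncertain. Its difference was -0.18 in replicates 1 and 2 and -0.41 in replicate 3. Itgb2, its beta chain, averaged 667 ± 12.3 TPM in AC pretreated and 736 ± 135 TPM in untreated cells (n = 3 each), a difference of -0.13 ± 0.16 that turned direction between replicates 1 and 2 (-0.28) and replicate 3 (0.17). Calr and Cd93, which encode proteins linked to C1q binding, averaged 817 ± 71.8 and 364 ± 135 TPM in AC pretreated cells, against 791 ± 153 and 365 ± 36.9 TPM in untreated cells. C1qbp averaged 36.8 ± 2.53 TPM in AC pretreated and 40.0 ± 5.69 TPM in untreated cells.

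Among regulators of the cell surface, Cr1l and Cd59a stood above Cd55. Cr1l, which encodes the rodent regulator Crry, averaged 28.3 ± 2.92 TPM in AC pretreated and 28.8 ± 1.15 TPM in untreated cells. Cd59a, which encodes an inhibitor of the membrane attack complex, averaged 22.5 ± 4.46 TPM in AC pretreated and 23.6 ± 6.82 TPM in untreated cells (n = 3 each). Every library of both genes lay above every library of Cd55.

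Genes of the early proteases and of the terminal components had lower levels than C3ar1 and C5ar1. C1ra, a protease subunit of C1, averaged 16.7 ± 2.26 TPM in AC pretreated and 18.8 ± 3.30 TPM in untreated cells, a log2 difference of -0.16 ± 0.19 (-0.29 in replicates 1 and 2, 0.11 in replicate 3). C2, the classical pathway counterpart of factor B, averaged 0.841 ± 0.532 TPM in AC pretreated and 1.13 ± 0.392 TPM in untreated cells, a difference of -0.23 ± 0.31 (-0.18 in replicates 1 and 2), and it shares exons with Gm20547 as Cfb does. Fcna, which encodes ficolin A, a recognition molecule of the lectin pathway, averaged 11.1 ± 0.681 TPM in AC pretreated and 11.6 ± 2.54 TPM in untreated cells. Of the genes of the membrane attack complex, Hc (which encodes C5), C7, C8a and C8b were at 0 in all 6 libraries. C6 and C9 did not exceed 0.308 and 0.344 TPM, and C8g, the gene of the gamma chain of C8, averaged 4.60 ± 1.22 TPM in AC pretreated and 5.02 ± 2.47 TPM in untreated cells (n = 3 each). At 0 too were Cfd, which encodes the protease that activates factor B, and Cfi, C4bp and Vtn, which encode regulators. A count of 0 allows up to 3 reads per library, or 0.0931 to 0.158 reads per 1000000, and this limit covers counting error only.

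**Figure D4:**
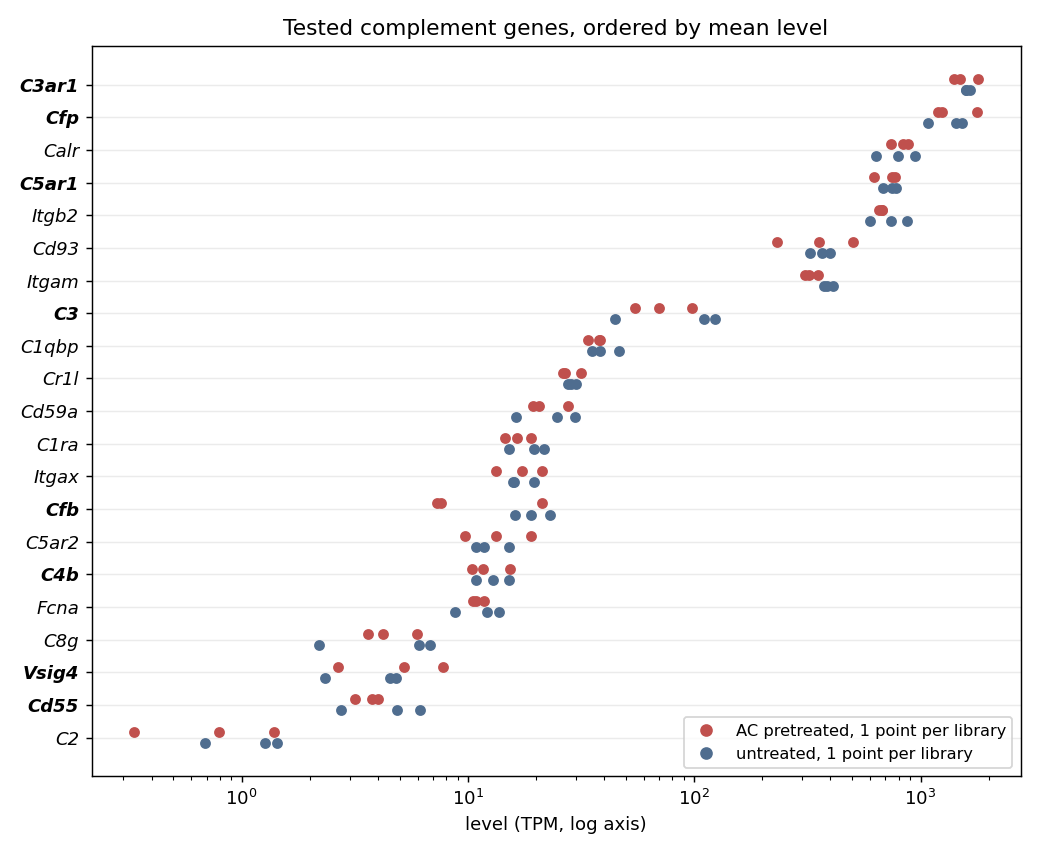
Level in TPM (horizontal log axis) of tested complement genes, ordered by their mean over 6 libraries, with 1 point per library for AC pretreated and untreated cells. The 8 genes named in bold are those described one by one, with C3ar1 and Cfp at the top and Cd55 and Vsig4 near the bottom, and of those shown Itgam alone has groups that do not overlap.

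Cytokines and transcription factors that are known to act on complement genes in inflammation were read from a small set of genes. Cebpb, which encodes a C/EBP factor, had 234, 160.3 and 205 TPM in AC pretreated and 146, 169 and 121 TPM in untreated replicates 1, 2 and 3, and the log2 difference was 0.46 ± 0.19 (limma adjusted p = 1.0). Its groups overlapped in 1 library, AC replicate 2, and its difference was 0.30 in replicates 1 and 2 and 0.76 in replicate 3. Irf1, Irf7, Tnf, Stat3 and Nfkb1 had differences of -0.29, -0.22, -0.22, -0.17 and -0.16, all with adjusted p of 1.0 by limma. Irf1 had 98.55, 89.3 and 75.2 TPM in AC pretreated and 107.7, 113.3 and 99.1 TPM in untreated replicates 1, 2 and 3. Its groups thus did not overlap, where 4.42% of all tested genes did not, while those of Irf7, Tnf, Stat3 and Nfkb1 did. In replicate 3 those of Stat3 and Nfkb1 turned to 0.28 and 0.07. Il6 did not exceed 0.241 TPM, and Ifng was at 0 in every library.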

How the data were processed

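The deposited file is 1 table of the authors' signal values, which they named TPM, with a row per gene and a column per library. The columns sum to 54732 to 92831, and none was left unused. STAR 2.7.10a, Subread, featureCounts 2.0.3 and mm10 appear in the submitters' processing notes, with role and order unstated. The sources used here do not give the annotation release or strand setting. When the signal was multiplied by merged exon lengths (GENCODE mouse release 21) and divided by 8.5697, whole reads came out in all libraries for 23490 of 23870 genes (98.4%, tolerance 0.02 reads), so the authors' values were not scaled for library size.

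Columns were rescaled to a sum of 1000000. A gene was tested if it reached 1 TPM in 3 or more libraries. The test was limma 3.58.1 under R 4.3.3, with a variance trend, on log2(TPM + 1), 2-sided, and p-values were adjusted by Benjamini-Hochberg over all tested genes with a threshold of 0.05. This test was written for values already in TPM and was then run on the rescaled ones. It was also run on simulated reads, in which every gene had the same spread beyond counting error and the sets of replicates did not differ. That run therefore does not show the power or error rate of the test in these libraries. Voom on the recovered reads was added after the data were seen. The 8 members and all lists were chosen with earlier results of these data known. Some genes of these lists are not reported here. Other complement genes named are the 8 of highest mean level and the 4 of smallest p. C5ar2, C8g, C6, C9, Fcna, C4a, Cd55b and the genes named as being at 0 were added after their values were seen, as were Lyz2, Gm23935, Gm20547, Gm49368 and Gm16083. Between replicates the chi-square of recovered reads was at least 19.5 per degree of freedom, so none was counted as a duplicate. Promoters are from RefSeq. Python 3.11.15 was used with pandas 2.3.3, scipy 1.17.1, numpy 2.4.6 and matplotlib 3.10.9. Alternatives covered pseudocounts, filters, scaling, the variance model, a block for the replicate number, and libraries left out.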

Additional observations from a re-analysis of the deposited data

How the results depend on the processing

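Of the 8 complement genes, 0 were called under any of the alternatives with a test. Besides leaving out 1 library, 8 alternatives could move the difference of a single gene, and of their 64 values 56 kept their direction and 8 turned. The other filters, the other variance models and the block leave the difference itself as it is. With scaling by median of ratios, which moved the median of all genes to -0.0079, from -0.0702 without it, C4b turned to 0.0057, C3ar1 to 0.0176 and C5ar1 to 0.0212. In replicate 3 alone C3 turned to 0.64, C4b to 0.47, C5ar1 to 0.0526 and Cd55 to 0.16, and with the values as deposited Cfp turned to -0.0138. For the first of these scalings the small differences move with the common shift, and for replicate 3 the cause was not tested. On leaving out 1 library, differences ranged from -0.69 to 0.0375 for C3, -0.21 to 0.0537 for C4b, -0.12 to 0.16 for Cfp, -0.16 to 0.0242 for C3ar1 and -0.11 to 0.0505 for C5ar1. Over the whole table, 0 genes were called by limma with trend, 1 without the trend and 29 in the values as deposited, whose libraries differ in scale. Voom called 0 of 12210, with 97 at an unadjusted p under 0.05. With the replicate number as a block, 0 genes were called over the whole table and 0 of the 8. The numbers were not treated as pairs, since deviations of same-numbered libraries correlated at -0.06, 0.01 and 0.167. The reads behind Vsig4 (25 to 79 per library) and Cd55 (85 to 256) limit their precision, while C3ar1, C5ar1 and Cfp each had at least 11945.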

Other observations

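Cfp and Vsig4 lie on the X chromosome. The libraries did not differ in the marks of sex: the X-linked noncoding gene Xist did not exceed 0.0327 TPM, and the Y-linked Ddx3y stood at 29.6 to 58.6 TPM over all 6 libraries.

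The TPM of Cfp, a product that acts on the alternative convertase, exceeded that of C3 in every library, by 18.0, 22.8 and 17.2 times in AC pretreated and 12.4, 12.9 and 24.2 times in untreated replicates 1, 2 and 3. C3 in turn exceeded C4b by 9.47, 4.70 and 4.56 times in AC pretreated and 9.63, 7.31 and 4.12 times in untreated replicates 1, 2 and 3.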
